A study of Sus scrofa with 40 samples.

Results

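The proteasome and ubiquitin system genes are read here through 46 of the 23999 gene probe sets on a porcine Affymetrix array. They are the probe sets whose gene title, as printed in the authors' deposited tables, holds the word proteasome or ubiquitin, case ignored and ubiquinol left out. A few titles and genes were set aside by the same rule. The titles put 13 of them in the proteasome, 18 in ubiquitin conjugation, 10 in deubiquitination and 5 among ubiquitin itself and ubiquitin-like proteins. They cover 38 distinct symbols or titles, so several members are probe sets of 1 gene and are not independent of each other. The deposited tables give titles for 11814 probe sets, and several of those tables list probe sets chosen by the authors for a measured change. Membership is therefore not blind to the contrasts: in the control comparison 39.5% of the listed probe sets had an unadjusted p under 0.05, against 27.2% of all probe sets tested.

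Ubiquitin is a small protein that cells attach to other proteins through a relay of activating (E1), conjugating (E2) and ligating (E3) enzymes, and that deubiquitinating peptidases take off again. Proteins carrying ubiquitin chains are unfolded and cut by the 26S proteasome, a barrel-shaped core (20S) with catalytic beta subunits, capped by a 19S regulatory particle of ATPase and non-ATPase subunits. Interferon makes cells swap the standard catalytic subunits for inducible ones, and adds the activator PA28, which together shape the peptides shown on MHC class I. Endothelial cells are among the cells that make these inducible subunits.

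The arrays measured RNA of primary coronary endothelial cultures from female farm pigs aged 4 months. A control group held 8 pigs, a group fed high cholesterol (CHL) held 6, and a group given a diet rich in fish oil and polyunsaturated fatty acids (FO) held 6. Each pig gave native cells, scraped from the left circumflex artery (LCX), and regenerated cells, scraped from a stretch of the left anterior descending artery (LAD) whose endothelium had been removed earlier. All cultures grew for 10 days without passage. State and artery change together in this design and cannot be told apart. All regenerated cells, control included, had been through the denudation, and no LAD without denudation was measured. In whole-culture RNA, fewer cells of a type and less RNA per cell cannot be told apart either. The labels do not show that the arrays of control pairs 1 to 5 share an animal, and those of FO pair 6 carry 2 different animal numbers. In control 4, control 5 and FO 6 the deviations of both arrays from their group means correlated below 0 over the probe sets tested (-0.12, -0.03 and -0.23), against 0.18 to 0.67 in the other 17 pairs.

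Levels are given as log2(signal + 16) of the authors' array signal, on which a signal of 0 would read 4, and changes are regenerated minus native within a pair. Levels of different probe sets are not set against each other, since probes differ in brightness. The regenerated arrays of control 6 and FO 3 stood apart: their actin 3'/5' signal ratios were 264 and 422 and their GAPDH ratios 1005 and 59.9, against 1.33 to 6.89 and 0.935 to 1.82 on the other 38 arrays. A high 3'/5' ratio means that the 5' end of a transcript was poorly covered, as in degraded RNA. The endothelial genes PECAM1 and CDH5 were bright in all groups, with group medians of 12.83 to 13.06 and 12.83 to 13.30. KDR, at group medians of 4.32 to 4.56, and VWF, at 5.91 to 6.32, were low in every group although both define endothelium. Other endothelial markers moved: the control medians of FLT1 were 7.68 in native and 5.92 in regenerated cells, and those of ENG were 10.77 and 11.70. Of 8 endothelial markers tested, 3 (37.5%) had an unadjusted p under 0.05 in control (1 higher, 2 lower), against 27.2% of all probe sets, and 0 passed the adjusted threshold. The summed log2 level of the 9 measured had medians of 14.62 on control native and 14.65 on control regenerated arrays. The leukocyte genes CD3E and ITGAM had group medians of 4.77 to 5.36 and 4.39 to 4.69, near the floor of the scale, while CD14 had 5.56 to 6.61. Smooth muscle markers were less even: their summed log2 level ranged from 11.07 to 14.81, with a median of 11.83, on the control native arrays and from 11.48 to 15.10, with a median of 14.36, on the control regenerated arrays.

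Of the 46 members, 44 passed the filter on low signal. UBE3B, a ubiquitin ligase, and USP30, a deubiquitinase of mitochondria, did not. USP30 levels lay between 4.13 and 6.05 on all arrays. None of the 44 passed an adjusted p of 0.05 (limma with Benjamini-Hochberg adjustment over 17999 probe sets) in the control, CHL or FO comparison of regenerated with native cells, where 0.289%, 0.00556% and 0.0389% of all probe sets did. In the mean of the 3 diets 1 member passed, with a lower value, where 2.67% of all probe sets did and 1.19% with a lower value. There 18 members (40.9%) had an unadjusted p under 0.05, against 23.4% of all probe sets. At an unadjusted p under 0.05, 22 members differed in control (3 higher and 19 lower), 1 in CHL (lower) and 2 in FO (lower), against 27.2%, 6.36% and 8.66% of all probe sets. These member shares are 50%, 2.27% and 4.55%, and the control share also stands beside the 39.5% of the titled probe sets. The median change of the 44 was -0.13 in control, 0.01 in CHL and -0.18 in FO, while over all probe sets tested it was -0.02, 0.02 and -0.003. The count of 0 in control rests on which pigs are in the fit: it was 16 without control 8 and 12 without control 3, when 2398 and 1449 of all probe sets passed, and at most 5 without any other single pig. Without the 2 pigs with a degraded array it stayed at 0. Without control 4, control 5 and FO 6, left out after the data had been seen, it was also 0, and 10 members (22.7%) had an unadjusted p under 0.05 in control, against 8.94% of all probe sets.

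**Figure D1:**
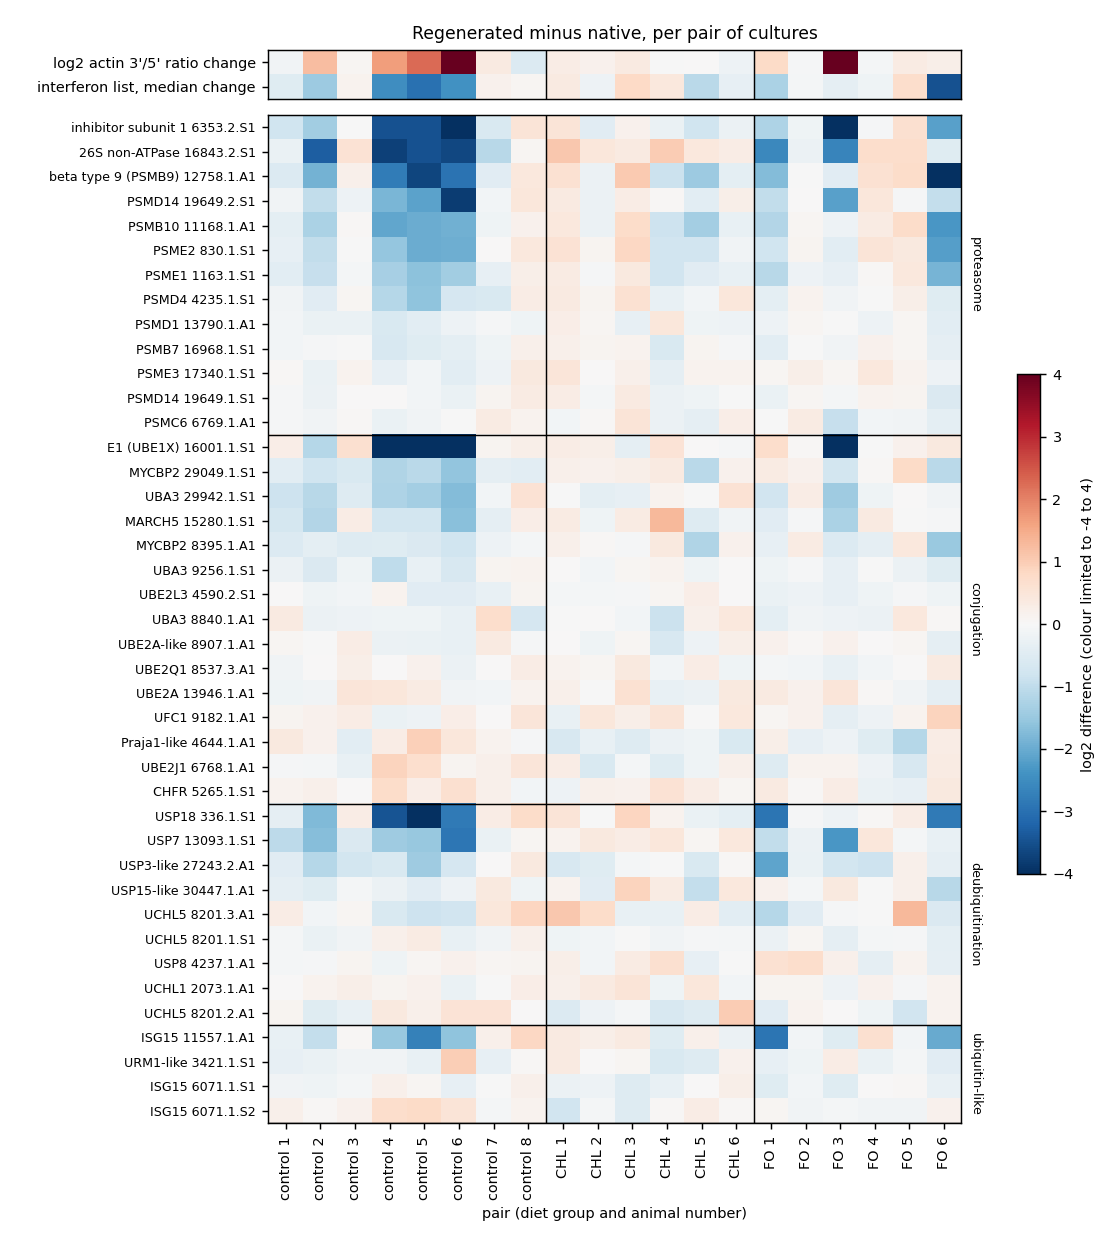
Log2 difference, regenerated minus native, of 41 of the 44 tested members (rows, grouped by class) in each of the 20 pairs (columns, grouped by diet); blue is lower and red is higher in the regenerated culture, with the colour limited at the ends of the scale. The top rows give the change of the actin 3'/5' ratio and the median change of 16 interferon response genes; the darkest blue cells sit in control pairs 2, 4, 5 and 6 and in FO pairs 1, 3 and 6.

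The inducible subunits of the proteasome and their activator had lower levels in some of the regenerated control cultures, and no change passed the adjusted threshold. Beta type 9 (PSMB9, listed as SBAB-554F3.3), an interferon-inducible catalytic subunit, had log2 levels of 8.78 to 12.91 with a median of 12.64 on the 8 control native arrays and of 9.20 to 12.87 with a median of 9.89 on the 8 regenerated arrays. The ranges overlapped, because control native 8 was as low as the lowest regenerated arrays and the regenerated arrays of pairs 1, 3 and 7 stayed in the native range. The pair differences were -0.56, -1.90, 0.21, -2.79, -3.68, -2.96, -0.47 and 0.44 for control 1 to 8, so pairs 2, 4, 5 and 6 carried the difference. The fitted change was -1.46 ± 0.48 (SE, n = 8 pairs), with a limma adjusted p of 0.0773. Without control 4, control 5 and FO 6 it was -0.87 ± 0.40 (adjusted p = 0.553).

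In CHL cells PSMB9 ranged from 9.86 to 12.97 with a median of 12.09 on native and from 9.0 to 13.54 with a median of 11.88 on regenerated arrays. The groups overlapped almost fully, and the pairs split into 2 higher and 4 lower. In FO cells the native arrays ranged from 10.70 to 13.09, median 12.21, and the regenerated arrays from 8.96 to 13.14, median 12.10. FO 1 and FO 6 stood out there, with differences of -1.73 and -4.03, while the other 4 FO pairs lay between -0.45 and 0.74. The fitted changes were -0.21 ± 0.56 in CHL and -0.82 ± 0.56 in FO (adjusted p = 0.985 and 0.659).

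PSMB10, the inducible counterpart of the standard subunit PSMB7, followed the same pairs. Its control levels ran from 9.30 to 11.86 with a median of 11.24 in native and from 9.24 to 11.54 with a median of 9.71 in regenerated cells. The pair differences of control 2, 4, 5 and 6 were -1.26, -2.08, -2.0 and -1.91, those of the other control pairs lay between -0.39 and 0.16, and FO 6 was at -2.34. The control change was -0.95 ± 0.32 (adjusted p = 0.0815), and those of CHL and FO were -0.26 ± 0.37 and -0.42 ± 0.37. Without control 4, control 5 and FO 6 the control change was -0.58 ± 0.29 (adjusted p = 0.561). CHL 4 and CHL 5 were lower too, at -0.83 and -1.36.

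PSME1 and PSME2 encode the alpha and beta subunits of the PA28 activator, which opens the core. PSME1 ran from 11.33 to 13.11 with a median of 12.73 in control native cells and from 11.30 to 13.03 with a median of 11.64 in control regenerated cells. It was lower in 7 of 8 control pairs, 4 of 6 CHL pairs and 4 of 6 FO pairs. Its changes were -0.73 ± 0.23 in control (adjusted p = 0.0702), -0.15 ± 0.26 in CHL and -0.50 ± 0.26 in FO, and -0.46 ± 0.14 in the mean of the 3 diets (adjusted p = 0.0794). PSME2 had a control median of 12.69 in native and 11.17 in regenerated cells and a control change of -0.80 ± 0.29 (adjusted p = 0.0991). Without control 4, control 5 and FO 6 the control changes of PSME1 and PSME2 were -0.48 ± 0.21 and -0.47 ± 0.27 (adjusted p = 0.54 and 0.585). PSME3, the gamma subunit of a separate nuclear PA28 that interferon does not induce, ran from 9.34 to 10.61 in control native and from 9.49 to 10.19 in control regenerated cells, with a change of -0.10 ± 0.11 (adjusted p = 0.597).

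**Figure D2:**
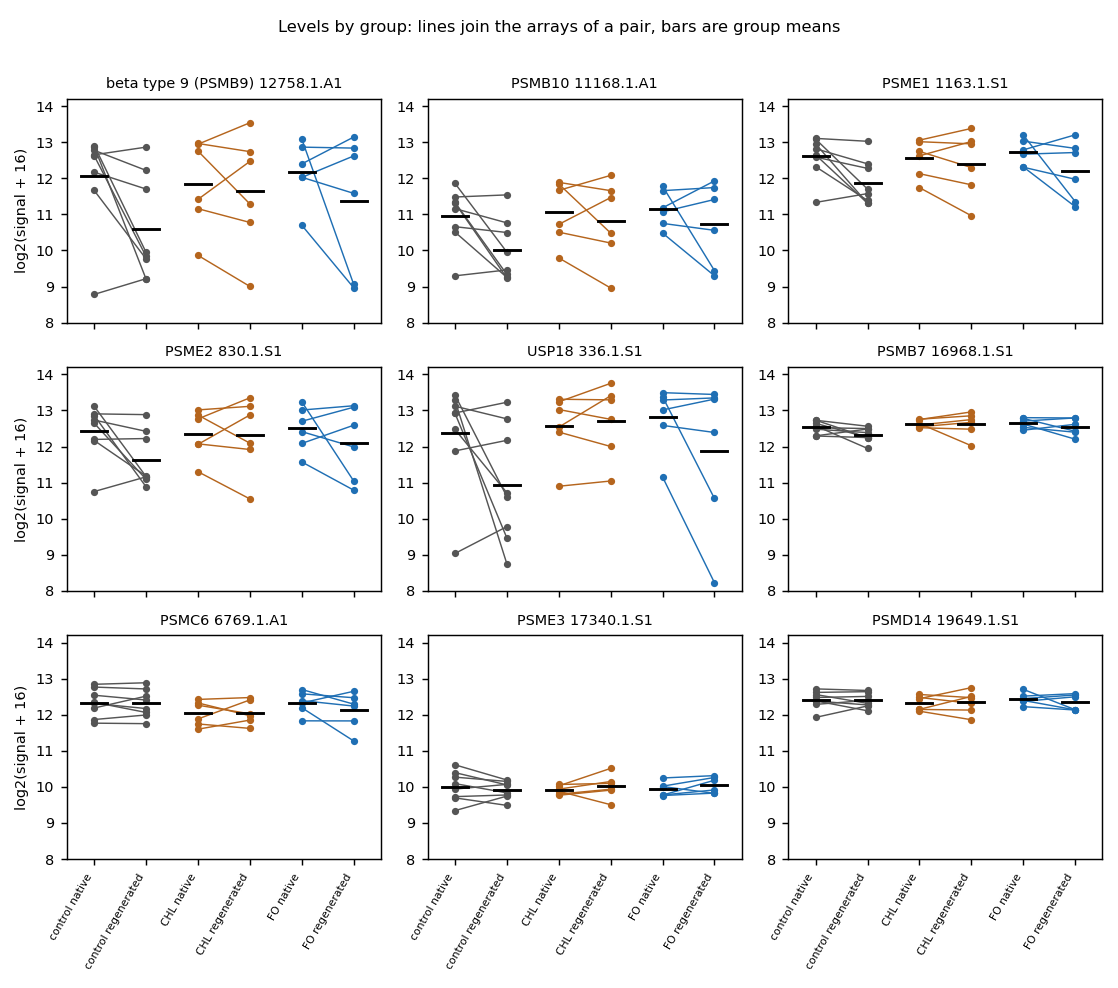
Log2(signal + 16) of 9 members on every array, by group; lines join the native and regenerated array of a pair and black bars are group means. PSMB9, PSMB10, PSME1, PSME2 and USP18 spread over several log2 units with a few steep lines in control and FO, while PSMB7, PSMC6, PSME3 and the first PSMD14 probe set stay nearly flat.

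The median pair difference of PSMB9, PSMB10, PSME1 and PSME2 was -0.41, -1.12, 0.02, -1.82, -1.99, -1.93, -0.24 and 0.33 in control 1 to 8. A list of 16 measured interferon response genes, members left out, had medians of -0.48, -1.46, 0.15, -2.49, -3.0, -2.41, 0.16 and 0.08 in the same pairs. Both medians were lowest in pairs 2, 4, 5 and 6. In FO 6 they were -2.27 and -3.48, in FO 1 they were -1.14 and -1.25, and in CHL 5 they were -1.07 and -1.09. CHL 4 was a pair where they parted, at -0.81 and 0.42. All 16 interferon genes were below 0 in control, with a median change of -1.12, where 52.5% of all probe sets were below 0. An unadjusted p under 0.05 was reached by 14 (87.5%) and an adjusted one by 0. Of all probe sets 27.2% had such an unadjusted p, and 39.5% of those listed in the authors' tables did. The interferon median was 0.04 in CHL and -0.72 in FO.

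The smooth muscle marker list moved in several of the same cultures: its median pair difference was 1.02, 1.77, 2.86 and 1.18 in control 2, 4, 5 and 6 and 1.37 and 2.13 in FO 1 and FO 6. It was also 1.25 in control 1, where the inducible subunits differed by only -0.41. In control 7 of 7 measured smooth muscle markers were higher, 1 of them past the adjusted threshold, with a median change of 1.22. Over all 17999 probe sets tested 8549 were higher there, and 0.289% passed the adjusted threshold. Genes of a list could be matched only where the authors' tables give a symbol. Of 9 fibroblast markers 5 were matched and 0 passed in control. Their changes ran from -2.10 to 0.82 with a median of -0.17, and 3 (60%) had an unadjusted p under 0.05 (1 higher, 2 lower). Of 22 cell cycle genes 5 were matched and 0 passed in control. Their changes ran from -1.25 to 0.05 with a median of -0.04, and 1 (20%, lower) had such a p. Of all probe sets 27.2% had such a p in control. On the summed scale the interferon list ran from 12.62 to 16.91 with a median of 16.55 on control native arrays and from 12.88 to 17.02 with a median of 14.70 on control regenerated arrays. The part of the smooth muscle and interferon genes in the results on the inducible subunits was not tested.

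PSMB7, the standard catalytic subunit with trypsin-like activity, ran from 12.29 to 12.73 with a median of 12.55 in control native and from 11.95 to 12.56 with a median of 12.32 in control regenerated cells. The difference was below 0 in 7 of 8 control pairs, but small, at -0.20 ± 0.11 (adjusted p = 0.238). PSMC6, an ATPase of the regulatory particle base, changed by -0.02 ± 0.12 in control, 0.02 ± 0.14 in CHL and -0.21 ± 0.14 in FO. PSMD1, a scaffold subunit of the base, was lower in 8 of 8 control pairs with a change of -0.26 ± 0.10 (adjusted p = 0.11), 0.01 ± 0.12 in CHL and -0.11 ± 0.12 in FO. PSMD4, the ubiquitin receptor of the regulatory particle, ran from 11.09 to 12.27, median 11.86, in control native and from 10.55 to 11.78, median 11.46, in control regenerated cells. Its change was -0.53 ± 0.16 (adjusted p = 0.0712), with differences of -1.14 and -1.60 in control 4 and 5. Without those pairs and FO 6 it was -0.25 ± 0.15 (adjusted p = 0.59).

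PSMD14, the lid deubiquitinase that releases ubiquitin chains from the substrate, has a pair of probe sets that differed in size of change. On the first the control levels ran from 11.93 to 12.72 in native and from 12.11 to 12.67 in regenerated cells, with a change of -0.02 ± 0.10. On the second they ran from 8.16 to 10.38, median 10.14, in native and from 6.47 to 10.25, median 8.79, in regenerated cells, with a change of -1.09 ± 0.34 (adjusted p = 0.0718). The second probe set was lowest in the degraded pairs, at -3.80 in control 6 and -2.17 in FO 3. The first read -0.28 and -0.09 there. Without the degraded pairs the control change of the second was -0.70 ± 0.25 (adjusted p = 0.164). Which probe set reads PSMD14 RNA more faithfully was not tested.

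A probe set titled as a 26S non-ATPase subunit, with no number, had the largest difference between diets of the proteasome members. A second probe set of its cluster is described as non-ATPase subunit 3 and is counted among the further probe sets below. Levels of the unnumbered probe set ran from 4.94 to 8.37, median 8.10, in control native and from 4.54 to 8.11, median 4.89, in control regenerated cells. The lower of these values lie near the floor of the scale. In CHL the medians were 6.02 in native and 6.71 in regenerated cells, and in FO they were 6.65 and 5.31. The control pair differences were -3.29, -3.72, -3.50 and -3.63 in pairs 2, 4, 5 and 6 and between -1.11 and 0.58 in the other 4, while the 6 CHL pairs all lay between 0.31 and 1.09. The fitted changes were -1.86 ± 0.47 in control (adjusted p = 0.0576), 0.61 ± 0.54 in CHL and -0.75 ± 0.54 in FO. Without the degraded pairs the FO change was -0.38 ± 0.55. The control change was -1.60 ± 0.47 without those pairs and -1.27 ± 0.52 without control 4, control 5 and FO 6 (adjusted p = 0.14 and 0.54). The CHL effect minus the control effect was 2.47 ± 0.72, with an unadjusted p of 0.0024 and an adjusted p of 0.316.

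The probe set titled proteasome inhibitor subunit 1, named for a protein that blocks the core in vitro, had the lowest control change of the members with all pairs in the fit. It ran from 8.20 to 11.54, median 10.98, in control native and from 4.49 to 10.81, median 8.98, in control regenerated cells. It was lower in 7 of 8 control pairs and 5 of 6 FO pairs, and the lowest differences were again those of the degraded arrays, -6.65 in control 6 and -4.21 in FO 3. The changes were -1.99 ± 0.59 in control (adjusted p = 0.0667), -0.18 ± 0.68 in CHL and -1.20 ± 0.68 in FO. Without the degraded pairs they were -1.32 ± 0.41 in control (adjusted p = 0.15) and -0.60 ± 0.48 in FO, and the control value then lay above those of the 26S non-ATPase probe set and UBE1X.

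As a class, all 13 proteasome members had a control change below 0, 9 (69.2%) with an unadjusted p under 0.05, and a median of -0.73. Of all probe sets 27.2% had such a p, and 39.5% of those listed in the authors' tables did. Over the settings run the control median lay between -0.89 and -0.12, the latter with the actin 3'/5' ratio as a covariate. It was -0.63 without the degraded pairs, with 8 of 13 at that p where 20% of all probe sets were, and -0.47 without control 4, control 5 and FO 6, with 4 of 13 where 8.94% were. In both of these 12 of 13 were below 0. The share of all probe sets with a control change below 0 was 52.5%. In CHL 6 of 13 were below 0 with a median of 0.01 and 0 at an unadjusted p under 0.05, and in FO 12 of 13 were below 0 with a median of -0.40, also 0 at that p. The matching shares of all probe sets below 0 were 45.8% and 50.5%. The control and diet comparisons of the effect share the control pairs. The CHL effect minus the control effect was above 0 for 13 of 13 (3 with an unadjusted p under 0.05, 0 adjusted) and the FO effect minus the control effect for 11 of 13 (0 unadjusted), while 54.4% and 54.9% of all probe sets were above 0. No probe set of any kind passed the adjusted threshold in either comparison (0% of 17999), although 14.6% and 4.2% had an unadjusted p under 0.05.

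**Figure D3:**
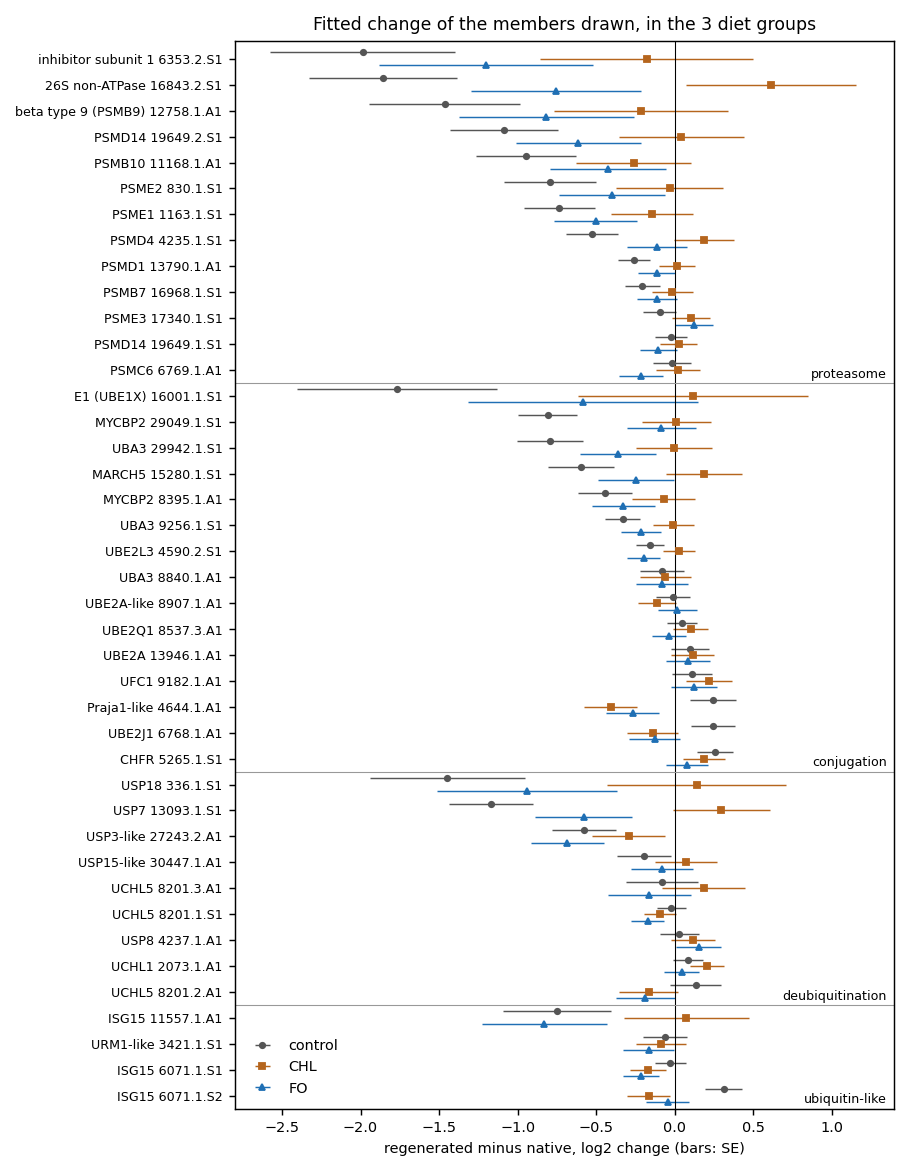
Fitted log2 change, regenerated minus native, of 41 of the 44 tested members in control (grey circles), CHL (brown squares) and FO (blue triangles), with bars of 1 SE, sorted within class by the control value. Control values reach -1.99 for inhibitor subunit 1 and 0.31 for 1 ISG15 probe set, and most CHL values lie near 0.

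In the conjugation class most members stayed near 0 and a few probe sets lay far below. The class median was -0.04 in control, -0.01 in CHL and -0.13 in FO, and in control 8 of 17 had an unadjusted p under 0.05 (2 higher, 6 lower), or 47.1%, beside 27.2% of all probe sets and 39.5% of those listed in the authors' tables. The probe set of the ubiquitin E1, UBE1X, which activates ubiquitin for nearly all conjugation, had the widest spread of any member: the SD of its 20 pair differences was 2.04, against a median of 0.50 over all probe sets tested. Its levels ran from 7.80 to 11.31, median 9.21, in control native and from 4.27 to 9.87, median 8.22, in control regenerated cells. The differences were -4.53, -5.16 and -4.54 in control 4, 5 and 6 and -4.77 in FO 3, -1.15 in control 2, and between -0.36 and 0.70 in the other 15 pairs. No pair lay between -4.53 and -1.15. The regenerated arrays of the degraded pairs, at 4.27 and 4.26, sat at the floor of the scale, and those of control 4 and 5 were at 6.51 and 6.15. With all pairs the control change was -1.77 ± 0.64 (adjusted p = 0.0936), and the changes in CHL and FO were 0.12 ± 0.73 and -0.58 ± 0.73. Without the degraded pairs the control change was -1.37 ± 0.53 (adjusted p = 0.182) and the FO change turned to 0.25 ± 0.63 (adjusted p = 0.939), so the FO value below 0 came from FO 3. Without control 4, control 5 and FO 6 the control change was -0.74 ± 0.62 (adjusted p = 0.689).

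Between the native groups no UBE1X difference passed the adjusted threshold with all controls in the fit. CHL native arrays ran from 6.57 to 8.28, median 7.87, and FO native arrays from 6.33 to 9.03, median 8.18. Both overlapped the control native range but lay lower. The difference from control was -1.83 ± 0.53 for CHL (adjusted p = 0.141) and -1.61 ± 0.53 for FO (adjusted p = 0.325). The control animals fall into 5 whose labels carry MA codes and 3 labelled by artery, while all CHL and FO animals are labelled by artery. A comparison with the MA-coded controls therefore changes diet and label style together, and these cannot be told apart. Against the MA-coded controls alone the differences were -2.49 (adjusted p = 0.0171) and -2.27 (adjusted p = 0.0368), and against the artery-labelled controls alone they were -0.74 and -0.51 (adjusted p = 0.785 and 0.876).

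UBA3 is the catalytic subunit of the E1 for NEDD8, a ubiquitin-like protein that switches on cullin ligases. Its 3 probe sets gave control changes of -0.79 ± 0.21 (adjusted p = 0.0601, lower in 7 of 8 pairs), -0.33 ± 0.11 (adjusted p = 0.0825, 6 of 8) and -0.08 ± 0.14 (adjusted p = 0.753, 6 of 8). On the first of them levels ran from 5.65 to 7.86, median 6.99, in control native and from 5.08 to 7.04, median 6.13, in control regenerated cells, so the ranges overlapped. UFC1, the E2 for the related modifier UFM1, changed by 0.11 ± 0.13, 0.22 ± 0.15 and 0.12 ± 0.15 in control, CHL and FO.

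MYCBP2, a very large E3 ligase known from axon growth, was lower in 8 of 8 control pairs on both of its probe sets. The first ran from 7.04 to 8.47, median 8.08, in control native and from 6.50 to 7.94, median 7.03, in control regenerated cells. Its control pair differences lay between -1.59 and -0.36 and its change was -0.81 ± 0.19 (adjusted p = 0.0547). On the second the change was -0.44 ± 0.17 (adjusted p = 0.117). In CHL the 2 probe sets changed by 0.01 ± 0.22 and -0.07 ± 0.20, with CHL 5 apart at -1.07 and -1.19. The native levels of the first in CHL, 6.44 to 8.06 with a median of 7.07, were already near those of control regenerated cells, and CHL native minus control native was -0.80 ± 0.26 (adjusted p = 0.169). FO native minus control native was -0.68 ± 0.26 (adjusted p = 0.419). Against the MA-coded controls alone, where label style differs along with diet, these differences were -1.04 (adjusted p = 0.0357) and -0.91 (adjusted p = 0.0837). Against the artery-labelled controls alone they were -0.41 and -0.29 (adjusted p = 0.814 and 0.894).

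MARCH5, a ligase of the outer mitochondrial membrane, ran from 8.46 to 9.83, median 9.22, in control native and from 7.79 to 9.63, median 8.59, in control regenerated cells. Lower in 6 of 8 control pairs, it had a change of -0.60 ± 0.21 (adjusted p = 0.091), and its CHL effect minus control effect was 0.78 ± 0.32 (adjusted p = 0.322).

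CHFR, a ligase of a mitotic checkpoint, was higher in 7 of 8 control, 5 of 6 CHL and 4 of 6 FO pairs, with a control change of 0.26 ± 0.12 (adjusted p = 0.162). UBE2J1, an E2 of the endoplasmic reticulum that serves the removal of misfolded proteins, changed by 0.25 ± 0.14 (adjusted p = 0.263).

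The Praja1-like ligase probe set ran against its control direction in CHL and, with mixed pairs, in FO. Its levels were low, 4.89 to 5.82 in control native and 4.86 to 6.12 in control regenerated cells, and 5.25 to 6.06, median 5.90, against 4.95 to 5.65, median 5.30, in CHL. It was lower in 6 of 6 CHL pairs and higher in 6 of 8 control pairs. The CHL change of -0.41 ± 0.17 (unadjusted p = 0.024, adjusted p = 0.775) was the one CHL member change under 0.05 before adjustment, and the CHL effect minus the control effect was -0.65 ± 0.22 (adjusted p = 0.316). The FO pair differences were 0.24, -0.33, -0.20, -0.49, -1.13 and 0.31 in FO 1 to 6. The FO effect minus the control effect was -0.51, with an unadjusted p under 0.05 that did not pass adjustment. The E2 genes UBE2L3, UBE2Q1, UBE2A and the UBE2A-like probe set stayed between -0.20 and 0.11 in all 3 diets. UBE2Q1 was higher in FO native than in control native cells by 0.29 ± 0.13 (adjusted p = 0.531).

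Among the deubiquitinases USP18 and USP7 lay lowest in regenerated control cells. USP18, an interferon-induced peptidase that removes ISG15 from proteins, ran from 9.04 to 13.43, median 12.93, in control native and from 8.75 to 13.23, median 10.67, in control regenerated cells. Its pair differences were -1.75, -3.46, -4.53 and -2.82 in control 2, 4, 5 and 6 and -2.93 and -2.82 in FO 1 and FO 6, and between -0.40 and 0.87 elsewhere. These are the pairs in which PSMB9 was also lowest. The changes were -1.45 ± 0.49 in control (adjusted p = 0.0844), 0.14 ± 0.57 in CHL and -0.94 ± 0.57 in FO. Without control 4, control 5 and FO 6 the control change was -0.60 ± 0.42 (adjusted p = 0.637).

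USP7, which stabilises MDM2 and p53 among others, ran from 5.94 to 8.20, median 7.27, in control native and from 4.29 to 7.38, median 5.95, in control regenerated cells. It was lower in 7 of 8 control pairs, higher in 6 of 6 CHL pairs (by 0.09 to 0.44) and lower in 5 of 6 FO pairs. The change in control was -1.17 ± 0.27, or 2.25-fold lower, with an adjusted p of 0.0528, in CHL 0.30 ± 0.31 and in FO -0.58 ± 0.31. The CHL effect minus the control effect was 1.47 ± 0.41 (unadjusted p = 0.0017, adjusted p = 0.316). The degraded pairs gave the lowest differences, -2.91 in control 6 and -2.33 in FO 3, and without them the FO change was -0.23 ± 0.22. Over 32 alternative settings the control change ran from -1.55 to -0.53, with a limma adjusted p under 0.05 in 7. It did not pass in control without the degraded pairs, nor without control 4, control 5 and FO 6, where 0 members did.

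The USP3-like probe set (LOC100156387), for a peptidase known to act on histone ubiquitin, was the 1 member past the adjusted threshold in any comparison. Its levels ran from 5.76 to 7.68, median 7.12, in control native and from 5.09 to 7.23, median 6.56, in control regenerated cells. In CHL they ran from 5.89 to 7.56, median 6.87, in native and from 5.94 to 7.18, median 6.51, in regenerated cells. In FO they ran from 6.14 to 7.52, median 6.85, and from 5.25 to 6.96, median 6.50. Regenerated medians were thus lower in all 3 diets, with wide overlap of the groups. It was lower in 6 of 8 control, 5 of 6 CHL and 5 of 6 FO pairs, with the lowest value, -2.12, in FO 1. The mean change over the 3 diets was -0.52 ± 0.13 (adjusted p = 0.037), made of -0.58 ± 0.20, -0.29 ± 0.23 and -0.68 ± 0.23. Over 32 alternative settings the call held in 15, with a limma adjusted p of 0.0157 to 0.497. The call did not hold when both pigs with a degraded array were left out (-0.51, adjusted p = 0.0792), without control 4, control 5 and FO 6 (-0.49, adjusted p = 0.12), with artery-labelled pigs alone (-0.35, adjusted p = 0.448) or without the pair as a block (adjusted p = 0.286). Leaving out control 2 alone also lost it. In the same mean of the 3 diets POSTN, 1 of the 5 fibroblast markers matched by symbol, also passed, at -2.79 ± 0.42 (adjusted p = 0.00114), and 4 of the 5 were below 0. The summed log2 level of the 5 had medians of 11.09, 11.10 and 12.44 on the native and of 10.45, 10.28 and 10.60 on the regenerated arrays of control, CHL and FO. Its ranges were 9.83 to 12.10, 10.72 to 12.73 and 10.55 to 13.15 in native cells and 9.86 to 11.34, 10.07 to 11.26 and 10.30 to 11.17 in regenerated cells. All 5 cell cycle genes matched by symbol had a mean change below 0 with an unadjusted p under 0.05, 0 after adjustment. Of all probe sets 23.4% had such a p. The median of the 5 cell cycle genes was -0.46 in the mean of the 3 diets and -0.70 in FO. The part of these genes in the USP3-like result was not tested.

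The other deubiquitinases had control changes near 0. UCHL1, a hydrolase best known from neurons, was one of the steadiest members, with levels of 13.20 to 14.00 over the 6 groups and changes of 0.09 ± 0.09, 0.21 ± 0.11 and 0.04 ± 0.11. UCHL5, which trims chains at the proteasome, has 3 probe sets with control changes of -0.02 ± 0.09, 0.13 ± 0.16 and -0.08 ± 0.23. USP8, an endosomal peptidase, changed by 0.03 ± 0.12 in control and the USP15-like probe set by -0.20 ± 0.17, the latter lower in 7 of 8 pairs. The class median was -0.08 in control, with 3 of 9 (33.3%) at an unadjusted p under 0.05, all lower, a share between the 27.2% of all probe sets and the 39.5% of those listed in the authors' tables. Without the degraded pairs the median was 0.01.

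The 3 probe sets of ISG15, a ubiquitin-like protein induced by interferon, disagreed. On the first of them the control levels ran from 11.93 to 14.88, median 14.31, in native and from 11.71 to 14.55, median 13.27, in regenerated cells, with a change of -0.75 ± 0.34 (adjusted p = 0.166). FO 1 and FO 6 were at -2.91 and -2.0 on it, and the FO change was -0.83 ± 0.40. The other 2 probe sets changed by -0.03 ± 0.10 and 0.31 ± 0.12 (adjusted p = 0.106) in control and did not follow those pairs. The URM1-like probe set, for a modifier that also serves tRNA sulphur transfer, was higher in FO native than in control native cells by 0.39 ± 0.17 (adjusted p = 0.485).

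Between the diets directly, in native or in regenerated cells, 0 members passed the adjusted threshold, as did at most 2 probe sets overall (0.0111% in native CHL minus control and 0% in the other 3). At an unadjusted p under 0.05 there were 4 members in native CHL minus control (1 higher), 5 in native FO minus control (2 higher), 3 in regenerated CHL minus control (2 higher) and 2 in regenerated FO minus control (0 higher). The matching shares of all probe sets were 15%, 9.09%, 9.16% and 4.51%, and of members 9.09%, 11.4%, 6.82% and 4.55%. Regenerated CHL cells had USP18 above regenerated control cells by 1.77 ± 0.80 (adjusted p = 0.539) and MARCH5 by 0.85 ± 0.38 (adjusted p = 0.537). These comparisons share the control arrays with each other.

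The degraded arrays led to a look at milder differences in the actin 3'/5' ratio. Its log2 change was 1.23, 1.68 and 2.27 in control 2, 4 and 5 and 0.76 in FO 1, and between -0.55 and 0.37 in the other 14 pairs once the degraded pairs were left out. Those with the higher ratio are pairs in which UBE1X, USP18 or the 26S non-ATPase probe set were low. Each probe set was fitted on the log2 ratio, with the animal as a block and a regenerated-minus-native term for each diet. This fit used 36 arrays of 18 animals and was chosen after the data had been seen. In it 9 of 44 members declined with the ratio past the adjusted threshold and 0 rose. Over all probe sets 6.8% passed, and 5.36% of all passed with a decline. The 9 were UBE1X, USP18, the 26S non-ATPase probe set, inhibitor subunit 1, the second PSMD14 probe set, PSMD4, the first probe sets of UBA3 and ISG15, and USP7.

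The slope, in log2 level per doubling of the ratio, was -1.91 ± 0.29 for UBE1X (adjusted p = 0.000443), -1.67 ± 0.26 for the 26S non-ATPase probe set (adjusted p = 0.000537) and -0.90 ± 0.14 for the second PSMD14 probe set (adjusted p = 0.000587). PSMB9 had -1.36 ± 0.41 (adjusted p = 0.0555). The slopes rest on few pairs: without control 4 and 5 there was 1 member left past the threshold, with 271 probe sets in all. With the ratio as a covariate, 2 members had an unadjusted p under 0.05 in control and 0 passed the adjustment, where 0.0333% of all probe sets passed it and 2.69% had an unadjusted p under 0.05. In that fit USP7 had a control change of -0.53 ± 0.17 and the first MYCBP2 probe set one of -0.54 ± 0.22. The 16 interferon genes, with a median slope of -1.15 and 8 past the threshold, declined with the ratio too. FO 6 went otherwise: its ratio changed by 0.23 while its interferon median was -3.48. The part of the ratio in the member results, apart from that of the interferon genes, was not tested.

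**Figure D4:**
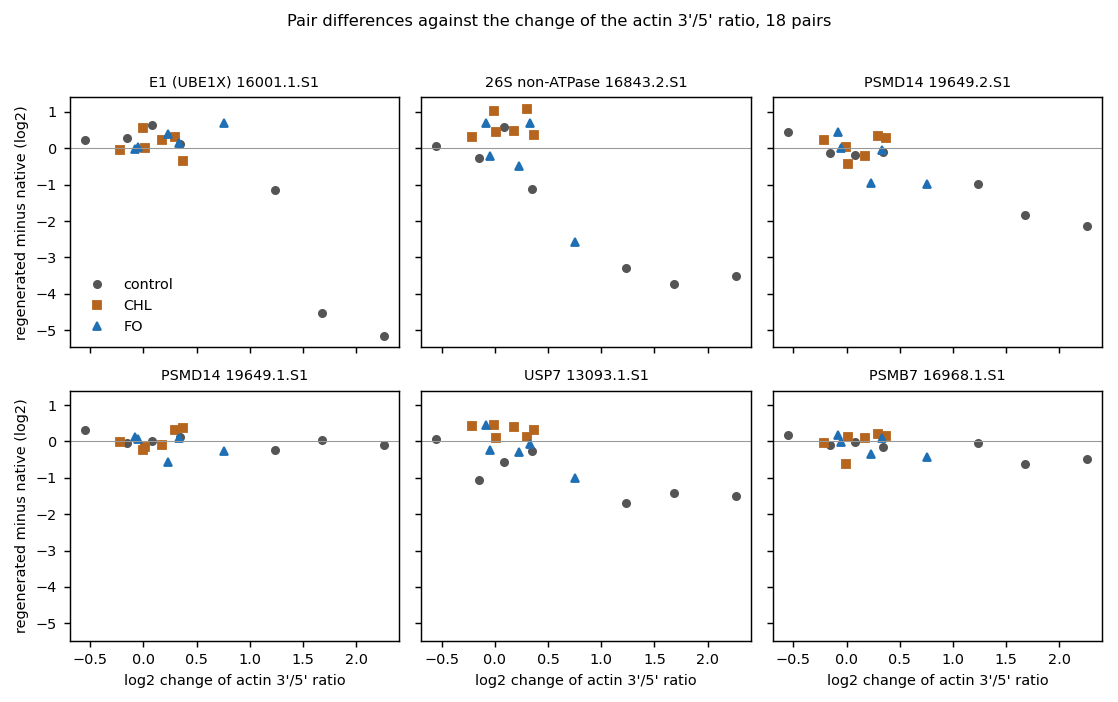
Pair difference in log2 level (vertical) against the log2 change of the actin 3'/5' ratio (horizontal) for 6 members in the 18 pairs without degraded arrays, control in grey, CHL in brown and FO in blue. UBE1X, the 26S non-ATPase probe set and the second PSMD14 probe set are lowest in the 3 control pairs at the right, while the first PSMD14 probe set stays near 0.

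A second set gave the same system through other probes: 66 further probe sets that the array's description field, and not the title, names as proteasome or ubiquitin genes, 65 of them tested. The descriptions come from the same deposited tables, so this set shares the selection of the members. Several of its probe sets belong to the cluster of a member. In control 24 had an unadjusted p under 0.05 (5 higher, 19 lower), or 36.9%, between the same 27.2% and 39.5%, and the median change was -0.19, with 0 past the adjusted threshold. The 22 proteasome probe sets among them had a median of -0.22 in control, 0.05 in CHL and -0.13 in FO, and 20 of 22 were below 0 in control, where 52.5% of all probe sets were. The 3 probe sets described as similar to PSMD11, a non-ATPase subunit of the lid, again disagreed, at -0.23 ± 0.12, -1.84 ± 0.53 and -1.46 ± 0.39 in control. A second probe set of the cluster that reads inhibitor subunit 1, whose description is cut short, changed by -1.06 ± 0.27 in control (adjusted p = 0.0586) and by -0.67 ± 0.18 in the mean of the 3 diets (adjusted p = 0.0453), lower in 7 of 8 control pairs. It was the 1 of these 65 to pass in any comparison of regenerated with native cells. In that mean 2.67% of all probe sets passed, and 1.19% with a lower value. A probe set described as USP3 itself changed by -0.77 ± 0.22 in control (adjusted p = 0.0656) and -0.43 ± 0.14 in the mean (adjusted p = 0.0924).

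Of 66 other genes of the system listed by name (cullins, COP9 signalosome subunits, ubiquitin shuttles and others), 8 were matched by symbol and 7 tested. Symbols were taken from the authors' tables, so the rest may be on the array without one, and the list shares the selection of those tables. None of the 7 passed the adjusted threshold in any comparison. Their median control change was 0.06, and FBXO32, an F-box protein of muscle wasting, was the one with an unadjusted p under 0.05, at 0.60 ± 0.25 (adjusted p = 0.134). COPS4 and COPS5 of the COP9 signalosome changed by 0.11 and 0.04. Across all 44 members the median SD of the pair differences was 0.44, close to the 0.50 of all probe sets. The steadiest were the first UCHL5 probe set, UBE2L3, UBE2Q1 and UCHL1.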

How the data were processed

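The 40 arrays carry RNA labelled from an oligo(dT) primer, per the labels' protocols, so the measured part of a transcript is biased to its 3' end. The deposited values are intensities: array signals on a linear scale that the authors made with MAS5, per the submitters' processing notes, whose version is not given in the sources used here. The 124 control probe sets were left out. Signals were used as log2(signal + 16), and the 17999 probe sets (75%) whose mean lay above the 25th percentile of level were tested. Models were fitted with limma 3.58.1 in R 4.3.3 (with data.table, version 1.17.8), over all 40 arrays with the pair as a block, or over the 20 native or 20 regenerated arrays for the diet comparisons. P-values were adjusted by Benjamini-Hochberg over all probe sets tested, with a threshold of 0.05 and 10 comparisons. The number of arrays limits the precision. Replicates were taken as separate animals, which the labels do not show throughout. Labels with MA codes do not show which arrays share an animal, and those of an FO pair name different animals.

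The block follows the study's own comparison within each animal. In 17 of the 20 pairs the deviations of both arrays from their group means correlated above 0.1, and in control 4, control 5 and FO 6 below 0 (median 0.51, against -0.05 with arrays of other animals). Gene titles and symbols come from the authors' deposited tables, with symbols looked up in RefSeq. The members and gene lists were chosen with earlier results of these data known. Genes named are members past the threshold, the 3 lowest p-values of each class and comparison, the 3 most variable members of each class, and a list of catalytic, activator, ubiquitin and activating enzyme genes. The other members (UBE2A, UBE2A-like and USP15-like, and the untested UBE3B and USP30) were named after their values were seen, and 3 members are in the counts but not reported here by name. Fits on the actin ratio, the set named by description and the fits without 3 animals in doubt and without the 3 pairs that correlated below 0 were added after the data had been seen. The scripts were tested on simulated data.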

Additional observations from a re-analysis of the deposited data

Results flagged for a closer look

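In 9 of 123 groups of pair differences, 1 pair lay farther from the others of its diet than Dixon's test allows at its 95% level, and chance alone marks about 1 group in 20. The USP15-like probe set stood apart in FO 6 at -1.117, where the nearest other FO pair was at -0.087, and in control 7 at 0.398, with the nearest at -0.079. FO 6 also stood apart on the UBE2A-like probe set, at -0.373 against 0.0187. The labels of that pair name different animals. The URM1-like probe set was at 0.9841 in control 6, against 0.059, and UBE1X at -4.773 in FO 3, against -0.00987. These are the pairs with a degraded array. Both MYCBP2 probe sets were apart in CHL 5, at -1.074 against 0.170 on the first and at -1.192 against -0.0439 on the second. In CHL 4, PSMB7 was at -0.6142 against -0.0416. The second UCHL5 probe set was at 1.024 in CHL 6, against -0.0864.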

How the results depend on the processing

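The count of members past the threshold stayed within 1.5 times its value in 332 of 365 settings and moved in 33. A count of 0 that stayed 0 is among the 332, and the main count was 0 in every comparison but the mean of the 3 diets. Class medians moved by more than their SD over animals in 6 of 1288. That SD is wide, so these tallies do not measure how firm the results are. Of 2232 settings of single members 52 gained a call, 17 lost it and 3 changed sign. The control count of 0 became 2 with a pseudocount of 64 and 2 with MA-labelled controls alone, and ran from 0 to 16 when single animals were left out (16 without control 8, 12 without control 3, 5 without FO 6, 4 without FO 3, 1 without control 7). The count of 1 in the mean of the 3 diets became 0 with the filter at the 50th percentile, with array quality weights, without the 2 animals with degraded RNA, with artery-labelled animals alone, without the 3 animals in doubt, without the 3 pairs that correlated below 0 and with the actin ratio as a covariate, and 2 with MA-labelled controls alone. It ran from 0 to 4 when single animals were left out. Without the replicate block it was 0, and the block changed the count of no other comparison. In native cells, CHL minus control had 2 members with array weights and 3 with MA-labelled controls, and FO minus control had 1 with those controls, in place of 0. With those controls diet and label style change together. The slope count of 9 became 18 with the GAPDH ratio and 1 without control 4 and 5, and ran from 6 to 13 when single animals were left out. The share of all probe sets past the threshold moved with the setting too. In the mean of the 3 diets it was 1.36% without the 2 animals with degraded RNA and 0.65% without the 3 pairs that correlated below 0. Such shares or counts are given only for some settings, so the other member counts here are not read as results about the members. With the actin ratio as a covariate the control change of the first ISG15 probe set was 0.20 and of USP18 0.0463, and the mean change of the 26S non-ATPase probe set was 0.13, each below 0 otherwise. The methods' t-test gave 0 members after adjustment in each of its 9 comparisons, where at most 1 probe set of any kind passed. Before adjustment it gave 17 of the 44 members in control, beside 3320 of the 17999 probe sets tested. The causes of these shifts were not tested.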
